A study of Mus musculus with 15 samples.

Results

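The mesenchymal transition factors and markers described here are 10 genes of the epithelial-mesenchymal transition: the markers Vim and Fn1, the repressors Zeb1, Zeb2, Snai1 and Snai2, the bHLH factors Twist1 and Twist2, and the epithelial splicing regulators Esrp1 and Esrp2. Members were taken as every non-control probe that the array files name with 1 of these symbols, which gave 24 of 56605 distinct probes. Of the 24 probes, 21 were well above background on at least 7 of the 15 arrays and were kept, among 34349 kept in all. Each of the 10 genes had at least 1 kept probe and so entered the comparison, among 22344 genes. The choice used no measured value of the probes, but it was made with earlier results of these data known.

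The tissue was spontaneous mammary tumour of MMTV-PyMT mice, in which the mouse mammary tumour virus promoter drives the polyoma middle T oncogene in mammary epithelium. All mice carried this transgene and were killed at 20 weeks of age. They were of the Wsh background (7 tumours, 1 array each) or of the B6 background, C57BL/6 (8 tumours, 1 array each). Wsh stands for the sash allele of Kit, the stem cell factor receptor gene, and mice homozygous for it are known to lack mast cells. The allele and whatever else distinguishes the 2 backgrounds come with the group, so their effects and those of missing mast cells cannot be told apart. The labels do not say whether tumours shared a mouse, and p-values therefore measure the spread between these samples.

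In an epithelial-mesenchymal transition, epithelial cells lose their junctions and take up a motile, matrix-producing state. Zeb and Snai proteins repress junction genes such as Cdh1 by binding E-box motifs, Twist proteins act beside them, and Vim and Fn1 are raised in cells that have passed through the transition. Esrp1 and Esrp2 keep the epithelial splice forms of many transcripts, and ZEB1 is known to repress ESRP1 in human cells. Most of these genes, Esrp1 and Esrp2 apart, are also used by fibroblasts, endothelial cells or leukocytes of the normal stroma, which whole tumour RNA contains. In such bulk samples, fewer cells of a type and less RNA per cell cannot be told apart.

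Kit was at -0.16, 0.67 and 1.41 (lowest, median and highest) in Wsh tumours, against 2.04, 3.32 and 3.86 in B6 tumours, and the groups did not overlap with any of its 3 probes. All 10 luminal epithelial markers, Krt8 and Krt18 among them, were well above background on all 15 arrays. A skeletal muscle list stood above its mean over the 15 arrays in 4 of 7 Wsh arrays (replicates 1, 3, 4 and 5) and in 1 of 8 B6 arrays (replicate 4). Correlations named below that lost their call, or member differences that turned in sign, without these 5 arrays are given without them as well. The arrays were on 2 slides, with 4 Wsh and 4 B6 arrays on slide 1 and 3 Wsh and 4 B6 arrays on slide 2, and slide and scan coincided. The share of non-control spots detected above background was 58.8% to 70.8% in Wsh and 55.7% to 73.4% in B6. Precision is limited by the number of arrays.

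No difference between Wsh and B6 tumours passed the test in any of the 10 genes. In the limma fit over all 22344 genes, 0 of the 10 members passed an adjusted p of 0.05, where 0.34% of all genes did (76 genes, 24 higher and 52 lower in Wsh). At an unadjusted limma p under 0.05 the count was also 0 of 10, where 10.4% of all genes lay. No member's Wsh and B6 values stood apart without overlap, which 0.367% of all genes did. The median difference of the 10 members was -0.016, against -0.0093 over all genes, with 5 members above 0 and 5 below. Each level given is a log2 signal minus the log2 75th percentile of its own array and sets no probe against another. A difference is Wsh minus B6, and SE is its standard error in the fit. With these 15 arrays the 95% intervals of the fold, Wsh over B6, ran from 0.730 to 1.12 for the least variable member, Esrp1, and from 0.451 to 1.92 for the most variable, Twist2.

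**Figure D1:**
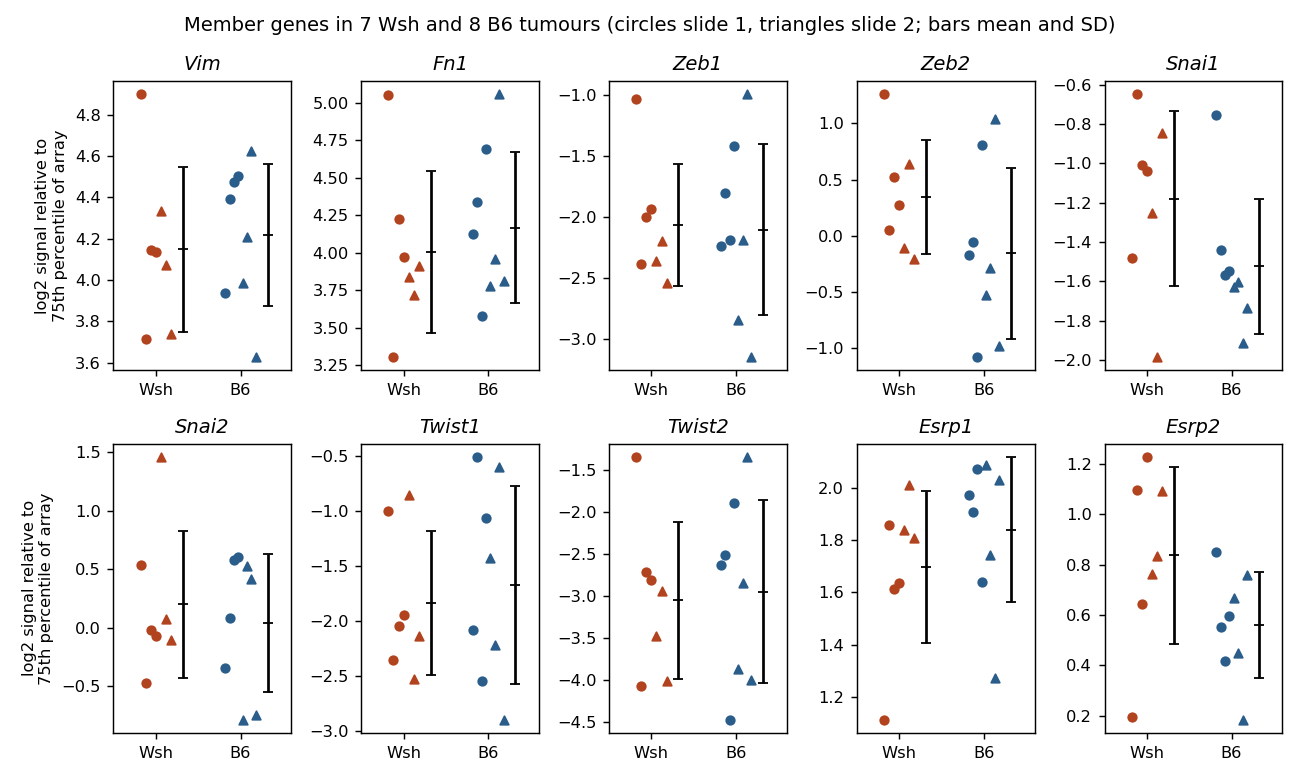
Level of each member gene in each tumour, as log2 signal scaled to the array's 75th percentile, by the kept probe of highest mean. Each point is 1 tumour (7 Wsh, left, and 8 B6, right), circles are slide 1 and triangles slide 2, and bars are the mean and SD. The groups overlap in all 10 genes.

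Vim encodes vimentin, the intermediate filament protein of mesenchymal cells. Its level was 3.71, 4.13 and 4.90 (lowest, median and highest) in Wsh tumours, against 3.63, 4.30 and 4.62 in B6 tumours. Wsh replicate 1 was the highest of all 15 arrays and B6 replicate 8 the lowest, and the ranges overlapped over most of their length. The mean was 4.15 ± 0.40 in Wsh (SD, n = 7) and 4.22 ± 0.34 in B6 (SD, n = 8), a difference of -0.070 (SE 0.18, limma adjusted p = 0.940). The fold, Wsh over B6, was 0.953 with a 95% interval from 0.725 to 1.25.

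Fn1 encodes fibronectin, a glycoprotein of the extracellular matrix. Its probe of highest signal, A_55_P2130178 (chr1:71632116-71632175, build mm9, minus strand), read 3.31, 3.91 and 5.05 in Wsh tumours, against 3.58, 4.04 and 5.06 in B6 tumours. The highest arrays were Wsh replicate 1 and B6 replicate 7, and the lowest were Wsh replicate 2 and B6 replicate 3. The difference was -0.16 (SE 0.25, limma adjusted p = 0.887).

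Of the 4 Fn1 probes, 2 are shown because the Fn1 results turn on them, A_51_P100856, which followed the 3′ probe over the tumours, and A_55_P2743309, whose relation to the 3′ probe did not pass. Both sequences are those of the array files, 5′ to 3′, with no letters in capitals.
Fn1 A_51_P100856: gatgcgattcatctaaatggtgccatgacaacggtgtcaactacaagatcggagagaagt
Fn1 A_55_P2743309: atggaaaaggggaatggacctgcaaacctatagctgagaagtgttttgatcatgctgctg
A_51_P100856 is placed at chr1:71637422-71639659 and A_55_P2743309 at chr1:71694694-71695800 (mm9, minus strand), so their 60 letters are spread over 2238 and 1107 bases of the genome. No exon annotation of that build was used. A_55_P2743309 lies 63.6 kb from the 3′ probe, towards the 5′ end of the gene.

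A_55_P2743309 read -2.68, -2.45 and -1.99 in Wsh tumours, against -4.19, -3.05 and -1.94 in B6 tumours. Of the 8 B6 arrays, 7 lay below the lowest Wsh array, and the remaining one, replicate 7, lay above the highest Wsh array. The difference was 0.76 (SE 0.25, 95% interval 0.22 to 1.30), with an unadjusted limma p of 0.00871 that did not pass over the 34349 kept probes (adjusted p = 0.261). It was 1 of 21 member probes with an unadjusted limma p under 0.05, where 10.4% of all genes lay at the gene level. After adjustment 0 of 21 passed, where 0.332% of all kept probes did. The difference was 1.08 on slide 1 and 0.42 on slide 2, and 0.70 (SE 0.39) without the 5 arrays with skeletal muscle. It passed in 1 of the 29 other settings, with arrays weighted by their quality (0.94, adjusted p = 0.0477), and those 29 settings gave adjusted p from 0.0477 to 0.854. With array weights 152 of all kept probes passed as higher and 165 as lower, against 41 and 73 in the main fit. The other 2 Fn1 probes, A_51_P100856 and A_52_P237357, gave 0.11 (SE 0.29) and 0.53 (SE 0.52).

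Over the 15 arrays A_51_P100856 and A_52_P237357 followed the 3′ probe with Pearson's r of 0.87 and 0.75 (Spearman's rho 0.85 and 0.80), whereas A_55_P2743309 had r = 0.29 (rho 0.31, permutation p = 0.296). For A_55_P2743309, r was 0.18 on slide 1, 0.55 on slide 2 and 0.05 without the 2 arrays farthest from the median. Such relations were computed for 11 further probes of Fn1, Zeb1, Zeb2 and Esrp1, each with the probe used for its gene, and 10 of 11 passed (permutation, adjusted p from 3.67e-05 to 0.0014), the exception being A_55_P2743309 (adjusted p = 0.296). No test compared the coefficients with each other.

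**Figure D2:**
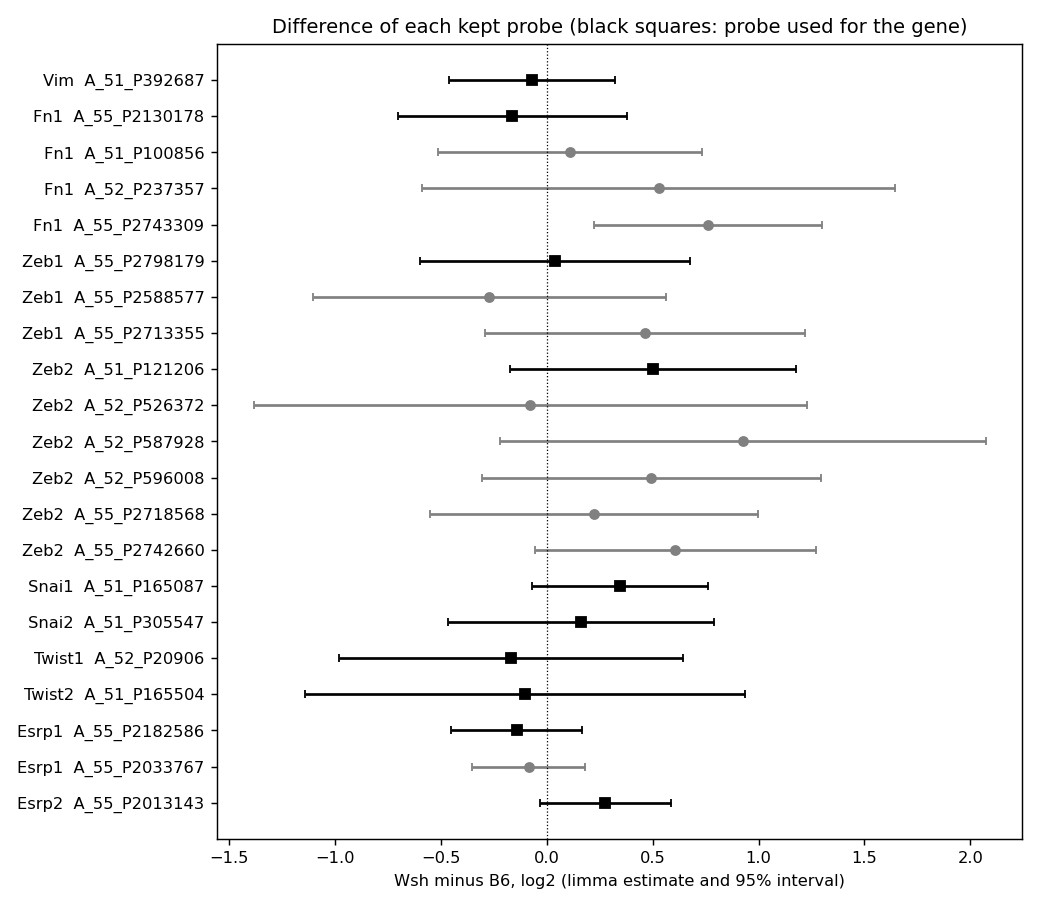
Difference of each of the 21 kept member probes, Wsh minus B6 on the log2 scale, with the 95% interval of the limma fit. Black squares are the probes used for the gene-level comparison, and the interval of the Fn1 probe A_55_P2743309 (0.22 to 1.30) is the one that leaves out 0.

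Zeb1 and Zeb2 encode zinc finger and homeodomain repressors of Cdh1. Zeb1 read -2.54, -2.20 and -1.04 in Wsh tumours, against -3.15, -2.19 and -0.996 in B6 tumours. Its difference was 0.038 (SE 0.30, limma adjusted p = 0.980), and its sign turned in 11 of 30 other settings, median and quantile scaling among them. The other 2 kept Zeb1 probes gave 0.46 (A_55_P2713355) and -0.27 (A_55_P2588577), neither of which passed. The remaining Zeb1 probe, A_52_P1083741, was well above background on 1 Wsh array and 0 B6 arrays and was not tested.

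Zeb2 had the widest set of probes and the largest difference at the gene level. Its probe of highest signal, A_51_P121206 (chr2:44844068-44844127, mm9, minus strand), read -0.21, 0.27 and 1.26 in Wsh tumours, against -1.08, -0.23 and 1.04 in B6 tumours. All 7 Wsh arrays lay above the B6 median, and 4 of 8 B6 arrays lay below the lowest Wsh array. The difference was 0.50 (SE 0.32, 95% interval of the fold 0.885 to 2.27, limma adjusted p = 0.638). Over the 6 kept Zeb2 probes the differences ran from -0.078 to 0.93, 5 of 6 above 0, with adjusted p from 0.491 to 0.976. These probes read 1 gene in the same tumours and are no replicates of the comparison. The remaining Zeb2 probe, A_55_P2119388, was well above background on 0 Wsh arrays and 1 B6 array and was not tested.

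Snai1 and Snai2 encode the zinc finger repressors Snail and Slug. Snai1 (A_51_P165087, chr2:167368073-167368132, mm9, plus strand) read -1.98, -1.04 and -0.65 in Wsh tumours, against -1.91, -1.59 and -0.75 in B6 tumours. Of the 7 Wsh arrays, 6 lay above the B6 median, while replicate 6 was the lowest of all 15 arrays and B6 replicate 1 stood above the other B6 arrays. The difference was 0.34 (SE 0.20, 95% interval of the fold 0.952 to 1.69, limma adjusted p = 0.583). Snai2 (A_51_P305547, chr16:14709361-14709420, mm9, plus strand) read -0.47, -0.02 and 1.46 in Wsh tumours, against -0.79, 0.25 and 0.60 in B6 tumours. The highest array, Wsh replicate 5, stood alone, and the Wsh median lay below the B6 median while the mean lay above it. The difference was 0.16 (SE 0.30, limma adjusted p = 0.910).

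Twist1 and Twist2 encode basic helix-loop-helix factors of mesoderm and mesenchyme, and they had the widest spread of the members between tumours. Twist1 (A_52_P20906, chr12:34644411-34644470, mm9, plus strand) read -2.53, -2.04 and -0.86 in Wsh tumours, against -2.90, -1.76 and -0.51 in B6 tumours, a difference of -0.17 (SE 0.38, limma adjusted p = 0.929). Twist2 (A_51_P165504, chr1:93744519-93744577, mm9, plus strand) read -4.07, -2.93 and -1.34 in Wsh tumours, against -4.47, -2.74 and -1.34 in B6 tumours, a difference of -0.10 (SE 0.49, limma adjusted p = 0.967). Wsh replicate 1 and B6 replicate 7 shared the top of the Twist2 range, and Wsh replicate 2 and B6 replicate 3 lay at its foot. Between the highest and the lowest of the 15 tumours, Twist2 ranged 8.79-fold and Twist1 5.26-fold.

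Esrp1 and Esrp2 encode RNA-binding proteins that keep epithelial splice forms, and they varied least of the members. Esrp1 (A_55_P2182586, chr4:11260208-11260267, mm9, minus strand) read 1.11, 1.81 and 2.01 in Wsh tumours, against 1.27, 1.94 and 2.09 in B6 tumours. The lowest arrays were Wsh replicate 1 and B6 replicate 7, which were the highest for Vim and Fn1 within their groups. The difference was -0.14 (SE 0.15, limma adjusted p = 0.801). Its other kept probe, A_55_P2033767, gave -0.087 (SE 0.12), and the remaining one, A_51_P467981, was well above background on 0 Wsh arrays and 1 B6 array and was not tested. Esrp2 (A_55_P2013143, chr8:108655089-108655148, mm9, minus strand) read 0.20, 0.83 and 1.23 in Wsh tumours, against 0.18, 0.57 and 0.85 in B6 tumours. Of the 7 Wsh arrays, 6 lay above the B6 median, and the difference was 0.28 (SE 0.15, 95% interval of the fold 0.977 to 1.5, limma adjusted p = 0.542). The highest-to-lowest range over all tumours was 1.96-fold for Esrp1 and 2.06-fold for Esrp2.

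Within each group the tumours were spread widely, and several members were high or low in the same tumours. The SD over the 15 arrays stood at percentile 93.7 of all 22344 genes for Twist2, 89.2 for Twist1, 86.2 for Zeb2 and 82.4 for Zeb1, and at percentile 45.3 for Esrp1. Wsh replicate 1 had the highest Vim, Fn1, Zeb1, Zeb2 and Twist2 of the Wsh tumours and the lowest Esrp1 and Esrp2. B6 replicate 7 was placed the same way among the B6 tumours for all 7 of these genes.

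**Figure D3:**
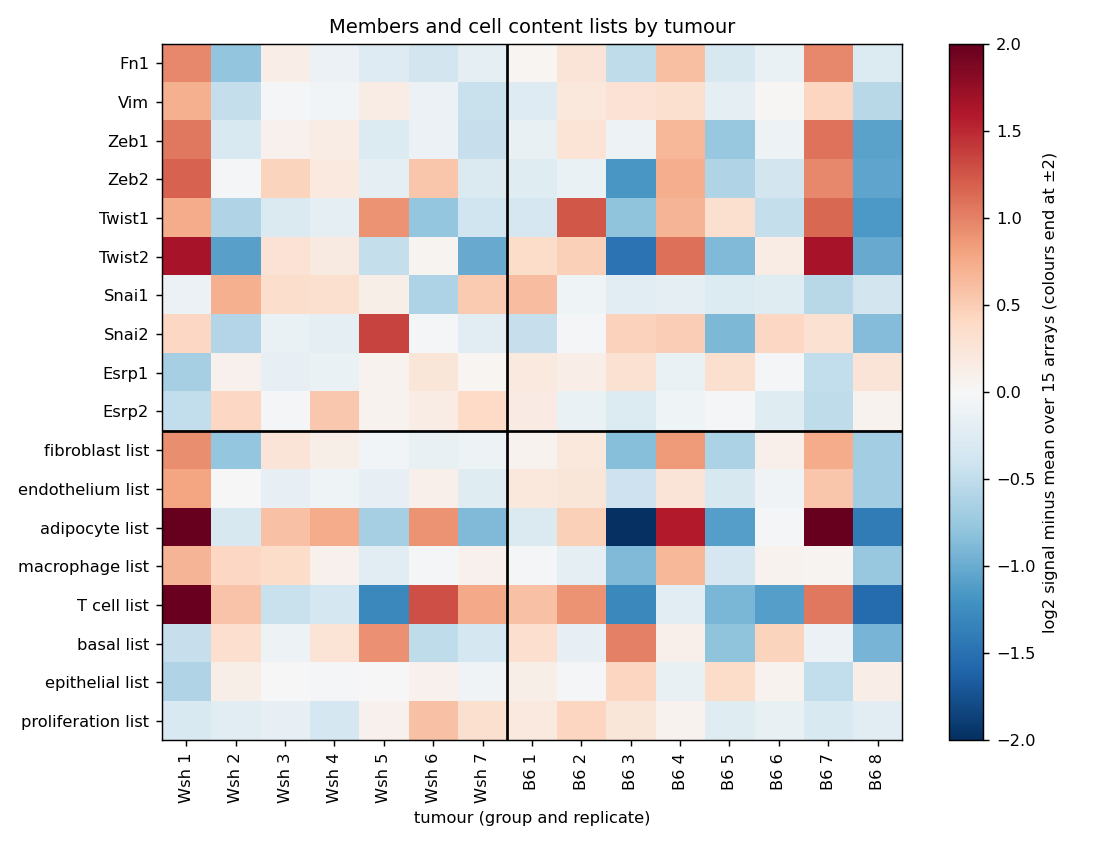
Level of each member gene (upper 10 lines) and mean level of 8 cell content lists (lower lines) in each tumour, as log2 signal minus its own mean over the 15 arrays; Wsh tumours are on the left and B6 tumours on the right. Red is above and blue below that mean, and colours end at ±2. Wsh replicate 1 and B6 replicate 7 are red for Vim, Fn1, Zeb1, Zeb2 and Twist2 and blue for Esrp1 and Esrp2.

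Correlation over the 15 tumours was computed for all 45 pairs of members, and 23 passed after Benjamini-Hochberg adjustment of the permutation p (15 positive and 8 negative), or 20 by Spearman's rho. The share that passes among pairs of other genes was not computed, so the counts of passing pairs have no background to be read against. The closest pair was Fn1 and Twist2 (r = 0.92, rho 0.93, permutation p = 1e-05, the smallest the resampling can give, adjusted p = 0.00045), with r = 0.96 on slide 1, 0.85 on slide 2 and 0.84 without the 2 arrays farthest from the Fn1 median. Zeb1 and Twist2 followed (r = 0.87, rho 0.79, permutation adjusted p = 0.000563), with 0.84 and 0.96 on the slides and 0.75 without the 2 farthest arrays. Zeb2 and Twist2 had r = 0.85 (rho 0.74, permutation adjusted p = 0.000563), with 0.85 on each slide and 0.75 without the 2 farthest arrays. Vim and Zeb1 had r = 0.85 (rho 0.86, permutation adjusted p = 0.000563), with 0.86 and 0.87 on the slides and 0.74 without the 2 farthest arrays.

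Esrp1 ran against Vim, Fn1, Zeb1, Zeb2 and Twist2, though with Vim it did not pass by rho (permutation adjusted p = 0.0920). Esrp1 did not pass with Twist1 (r = -0.52, permutation adjusted p = 0.0779), Snai2 (r = -0.38, permutation adjusted p = 0.214) or Snai1 (r = 0.057, permutation adjusted p = 0.842). It had r = -0.83 with Zeb1 (rho -0.69, permutation adjusted p = 0.00116), -0.82 with Fn1 (rho -0.75, permutation adjusted p = 0.00194) and -0.81 with Zeb2 (rho -0.74, permutation adjusted p = 0.00116). On slides 1 and 2 these were -0.83 and -0.91 for Zeb1, -0.74 and -0.94 for Fn1, and -0.91 and -0.68 for Zeb2. Without the 2 arrays farthest from the median of the partner they were -0.62, -0.52 and -0.66 (permutation adjusted p of 0.0699, 0.133 and 0.0610). These 3 calls were thus lost with fewer arrays and a narrower range, and the cause of the loss was not tested. Esrp2 was instead closest to Vim (r = -0.77, rho -0.79, permutation adjusted p = 0.00344), with -0.84 and -0.76 on the slides and -0.78 without the 2 farthest arrays. Esrp1 and Esrp2 did not pass as a pair (r = 0.46, rho 0.25, permutation adjusted p = 0.123; slides 0.33 and 0.68; -0.20 without the 2 farthest arrays).

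Over all 15 arrays Snai1 and Snai2 each passed with 1 other member by Pearson's r. Snai1 passed with Esrp2 alone (r = 0.63, rho 0.53, permutation adjusted p = 0.0259), on slides 0.76 and 0.62, but not by rho (permutation adjusted p = 0.0863), without the 2 farthest arrays (r = 0.54, permutation adjusted p = 0.119) or after group means were subtracted (r = 0.54, permutation adjusted p = 0.0615). By r, Snai2 passed with Vim alone (r = 0.70, rho 0.84, permutation adjusted p = 0.011), on slides 0.91 and 0.69, and did not pass without the 2 farthest arrays (r = 0.67, permutation adjusted p = 0.0578). By rho, Snai2 also passed with Zeb1 (rho 0.625, permutation adjusted p = 0.0383), where r did not pass (r = 0.51, permutation adjusted p = 0.0799). Snai1 and Snai2 together had r = -0.20 (rho -0.17, permutation adjusted p = 0.532), with -0.95 on slide 1 (permutation adjusted p = 0.00446) and 0.20 on slide 2. Snai1 and Vim also passed on slide 1 alone (r = -0.90, permutation adjusted p = 0.0197). They had r = -0.33 on slide 2 and -0.41 over all 15 arrays (permutation adjusted p of 0.549 and 0.173). Among Vim, Fn1, Zeb1, Zeb2, Twist1 and Twist2, a grouping made after the values were seen, 13 of 15 pairs passed, with r from 0.52 to 0.92. Over all 45 pairs, 10 passed on slide 1, 3 on slide 2, 5 without the 2 farthest arrays and 3 without the 5 arrays with skeletal muscle, while the sign was the same in 45 pairs on slide 1, 43 on slide 2, 39 without the 2 farthest arrays and 45 without the 5 arrays with skeletal muscle.

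Without the 5 arrays with skeletal muscle, the pairs that passed were Fn1 with Twist2 (r = 0.87), Vim with Zeb1 (r = 0.82) and Vim with Esrp2 (r = -0.87), each with a permutation adjusted p of 0.0207. Twist2 then had r = 0.80 with Zeb1 and 0.77 with Zeb2, and Vim had r = 0.79 with Snai2, each with a permutation adjusted p of 0.0647. Esrp1 had r = -0.77 with Zeb1, -0.71 with Twist2 and -0.70 with Zeb2 (permutation adjusted p = 0.0836 for each), and -0.45 with Vim (permutation adjusted p = 0.281). Esrp1 with Fn1 (r = -0.76) and Snai1 with Esrp2 (r = 0.69) had a permutation adjusted p of 0.0883.

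**Figure D4:**
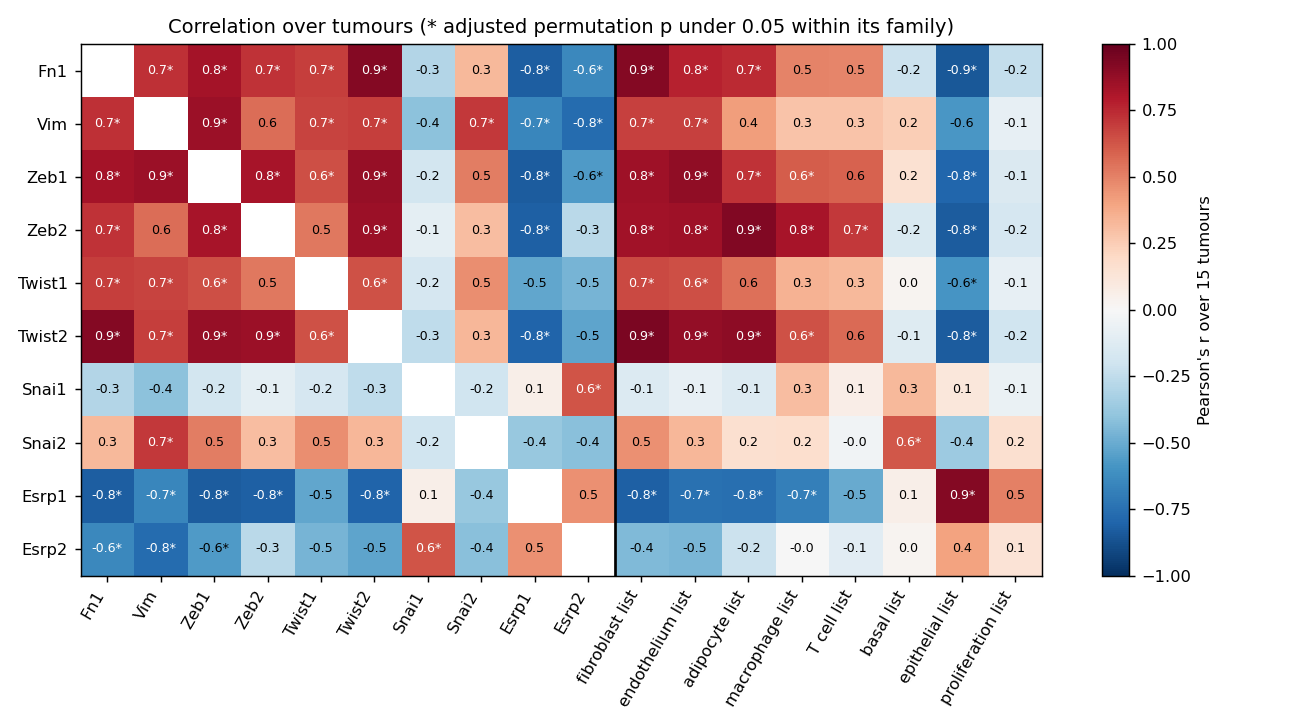
Pearson's r over 15 tumours between member genes (left block) and between members and cell content lists (right block), with r printed to 1 decimal. A star marks an adjusted permutation p under 0.05 within its family of 45 pairs or 80 relations, 23 and 31 of which carry one. Esrp1 is negative with Vim, Fn1, Zeb1, Zeb2 and Twist2 and positive with the epithelial list.

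Markers of stromal cells moved with the same members. The relation of each member to the mean of 8 lists, none of which holds a member, gave 80 relations, of which 31 passed after adjustment (22 positive and 9 negative), or 25 by rho. The share that passes for other genes was not computed, so these counts have no background to be read against either. In these relations the 2 farthest arrays are those farthest from the median of the list, and need not be the same from list to list. All 14 fibroblast markers were well above background on all 15 arrays, and their mean ran from -0.77 to 0.92 in Wsh tumours and from -0.86 to 0.85 in B6 tumours. Twist2 followed them with r = 0.95 (rho 0.94, permutation p = 1e-05, adjusted p = 0.0002), with 0.99 and 0.88 on the slides and 0.91 without the 2 farthest arrays. Fn1 followed them with r = 0.92 (rho 0.95, permutation adjusted p = 0.0002), with 0.96 and 0.82 on the slides and 0.89 without the 2 farthest arrays. The corresponding r was 0.85 for Zeb1, 0.84 for Zeb2, 0.68 for Vim and 0.66 for Twist1, each with a permutation adjusted p of 0.0245 or less. Twist1 did not pass without the 2 farthest arrays (r = 0.59, permutation adjusted p = 0.118). Twist2 passed with other lists as well. It had r = 0.89 with the adipocyte list (rho 0.85, permutation adjusted p = 0.0002) and 0.88 with the endothelium list (rho 0.83, permutation adjusted p = 0.000229).

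Zeb1 and Zeb2 each followed several lists. Over all 15 arrays Zeb1 had its highest Pearson's r with the endothelium list (r = 0.89, rho 0.74, permutation adjusted p = 0.000229), with 0.77 and 0.97 on the slides and 0.78 without the 2 farthest arrays. By rho the adipocyte list (0.81) and the fibroblast list (0.80) stood above it for Zeb1. Without the 2 farthest arrays they did so by r as well (0.95 and 0.89), though each list then loses its own 2 arrays. Over all arrays Zeb1 had r = 0.72 with the adipocyte list, with 0.66 and 0.95 on the slides. Without the 5 arrays with skeletal muscle this was 0.59 (permutation adjusted p = 0.244), against 0.87 for the endothelium list (permutation adjusted p = 0.0128). All 11 endothelial markers were well above background on all arrays, and their mean ran from -0.24 to 0.78 in Wsh and from -0.69 to 0.55 in B6. Zeb2 had its highest r and rho with the adipocyte list (r = 0.92, rho 0.94, permutation adjusted p = 0.0002), with 0.94 on each slide and without the 2 farthest arrays. Of 11 adipocyte markers 10 were well above background on all arrays, and their mean ran from -0.89 to 2.04 in Wsh and from -3.94 to 2.31 in B6. With the endothelium list Zeb2 had r = 0.85 (rho 0.82, permutation adjusted p = 0.000582), and 0.87 without the 5 arrays with skeletal muscle. Zeb2 also followed the macrophage list (r = 0.83, rho 0.70, permutation adjusted p = 0.000907), with 0.93 and 0.68 on the slides and 0.67 without the 2 farthest arrays (permutation adjusted p = 0.0515), and 12 of 12 macrophage markers were well above background on all arrays. Their mean ran from -0.21 to 0.67 in Wsh and from -0.88 to 0.66 in B6. No test compared these coefficients with each other.

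Esrp1 followed the epithelial junction and differentiation list (r = 0.92, rho 0.84, permutation adjusted p = 0.000229), with 0.93 on each slide and 0.75 without the 2 farthest arrays. That list had 26 of 26 genes well above background on all arrays, and its mean ran from -0.60 to 0.12 in Wsh and from -0.49 to 0.43 in B6. Esrp1 had r = -0.82 with the fibroblast list (rho -0.83, permutation adjusted p = 0.000533), with -0.75 and -0.94 on the slides and -0.75 without the 2 farthest arrays. Snai1 and Esrp2 passed with none of the 8 lists. Snai2 passed with the basal cell list alone (r = 0.62, rho 0.49, permutation adjusted p = 0.0343), which did not pass by rho (permutation adjusted p = 0.162) and had r = -0.041 on slide 1, 0.96 on slide 2 and 0.39 without the 2 farthest arrays. Of the 80 relations 9 passed on slide 1, 10 on slide 2, 18 without the 2 farthest arrays and 10 without the 5 arrays with skeletal muscle, and the sign was the same in 68, 70, 72 and 68 of 80. Without the 5 arrays with skeletal muscle the fibroblast list had r = 0.77 with Zeb1 (permutation adjusted p = 0.0520), 0.73 with Zeb2 (permutation adjusted p = 0.0900), 0.67 with Twist1 (permutation adjusted p = 0.147) and 0.52 with Vim (permutation adjusted p = 0.331), none of which passed. Zeb2 with the macrophage list (r = 0.70, permutation adjusted p = 0.111) and Snai2 with the basal list (r = 0.64, permutation adjusted p = 0.173) did not pass there either. The lists and the members were read on the same arrays with the same scaling, and the part of cell content in the members' levels was not tested.

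**Figure D5:**
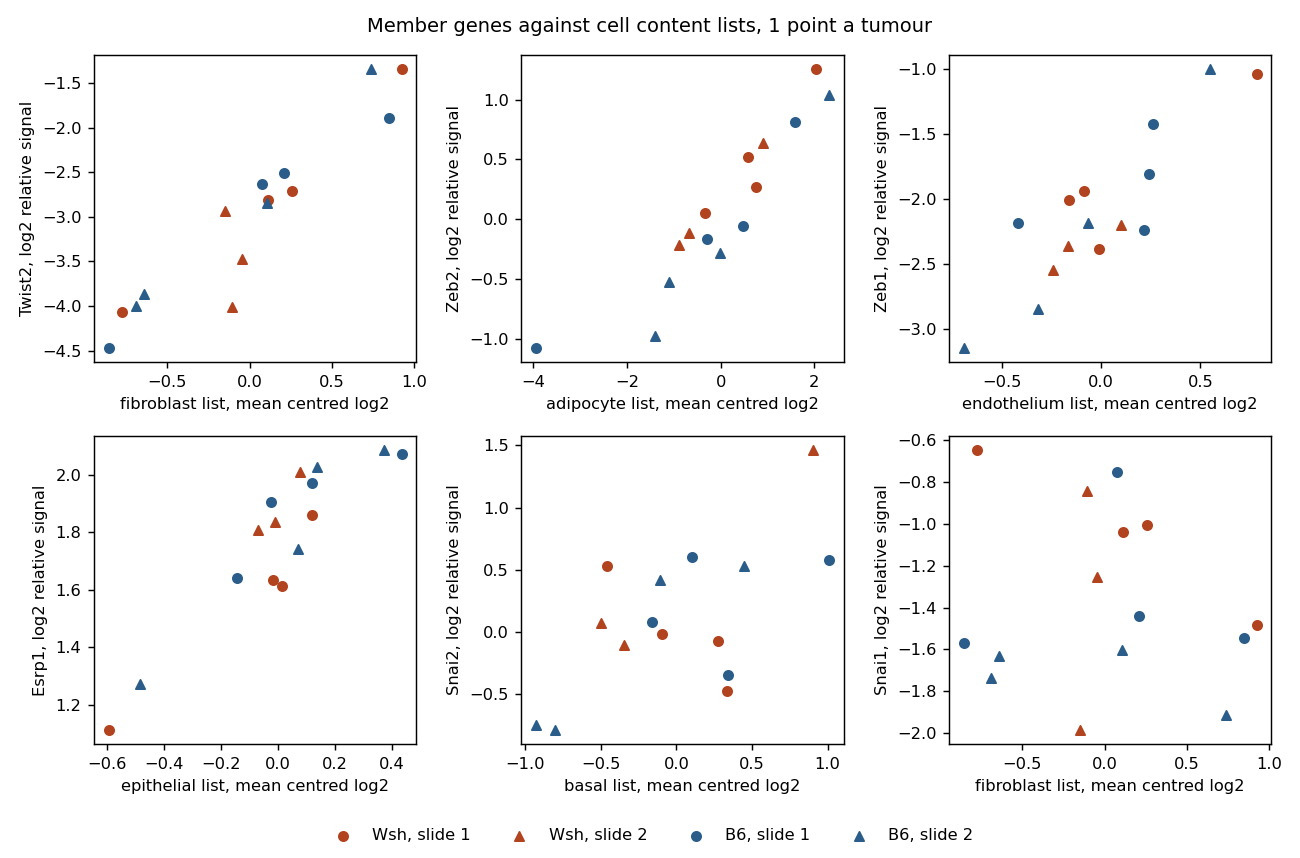
Level of 5 member genes (log2 signal scaled to the array's 75th percentile) against the mean centred log2 level of a cell content list, 1 point a tumour, with Snai1 against the fibroblast list as a sixth panel. Wsh tumours are red and B6 tumours blue, circles are slide 1 and triangles slide 2. Twist2, Zeb2, Zeb1 and Esrp1 are higher where their lists are higher in both groups, the Snai2 points on slide 1 do not, and Snai1 has r = -0.14.

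Of the wider pathway, 84 further genes in 4 lists were measured, and 0 passed over all genes in either direction, where 0.34% of all genes did. The list of other transcription factors of the transition had 19 of 20 measured (Snai3 was not), with 11 above 0 and 8 below and a median of 0.015. Among the genes of largest moderated t were Id1, an inhibitor of bHLH factors (0.43, SE 0.22, limma adjusted p = 0.532), and Foxc1 (-0.21, SE 0.12, limma adjusted p = 0.570). The 15 TGF-beta pathway genes had 4 above 0 and 11 below and a median of -0.070, led by the inhibitory Smad7 (-0.16, SE 0.10), the Smad corepressor Skil (0.21, SE 0.16) and the receptor Tgfbr2 (-0.15, SE 0.13). The 24 mesenchymal adhesion, matrix and motility genes had 14 above 0 and 10 below and a median of 0.067. In that list S100a4, a calcium-binding protein of motile cells, gave 0.51 (SE 0.22, limma adjusted p = 0.427), the membrane-cytoskeleton linker Msn gave 0.28 (SE 0.13, limma adjusted p = 0.454) and the hyaluronan receptor Cd44 gave 0.20 (SE 0.15).

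The 26 epithelial genes had 3 above 0 and 23 below, with a median of -0.12 against -0.0093 over all genes. Rab25, a small GTPase of epithelial recycling, was at 1.45 ± 0.22 in Wsh (SD, n = 7) and 1.88 ± 0.40 in B6 (SD, n = 8), a difference of -0.43 (SE 0.17, limma adjusted p = 0.368). Ovol2, a transcription factor that holds the epithelial state, gave -0.27 (SE 0.11, limma adjusted p = 0.398), and the tight junction gene Cldn3 gave -0.28 (SE 0.15, limma adjusted p = 0.538). Cdh1, which encodes E-cadherin and was chosen after its values were seen, gave -0.10 (SE 0.15). The 26 genes move together between tumours and share their arrays, so the count of signs was given no test. Scaling to the median moved the median of all genes to -0.11. That scaling shifts the difference of every gene by the same amount, the epithelial genes included. The -0.12 was taken under the main scaling and is not to be set against this -0.11.

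The genes whose levels were most like each member's were sought by Pearson's r over the 15 arrays among 16602 genes with a symbol. Twist2 was closest to Efemp1 (r = 0.99), a matrix glycoprotein gene, then Cd209f and Igfbp6, and Fn1 to the chemokine gene Ccl11 (r = 0.98), then the procollagen protease enhancer Pcolce and Cd209d. Zeb1 was closest to Tspan18 (r = 0.98), then Man2a2 and the semaphorin and VEGF coreceptor Nrp1. Zeb2 was closest to Sh3tc1 (r = 0.98), then Zeb2os (r = 0.96), which lies antisense to Zeb2, and Ebf2. Vim was closest to Fkbp9 (r = 0.96), Prrg1 and Glud1, and Esrp1 to Ntmt1 (r = 0.95), Pafah1b3 and Erfe. Snai2 was closest to 1700019D03Rik (r = 0.94), Adamts9 and Tpgs2, Esrp2 to Hus1 (r = 0.89), Esyt3 and Chrm4, Snai1 to Layn (r = 0.87), Adamtsl2 and Mafk, and Twist1 to Zfpm2 (r = 0.85), Tmprss6 and Adgra2. The number of genes with r above 0.8 was 709 for Twist2, 681 for Zeb2, 614 for Zeb1, 479 for Fn1, 276 for Esrp1, 153 for Vim, 50 for Snai2, 22 for Esrp2, 11 for Snai1 and 5 for Twist1. These are descriptions of 15 samples that share scaling and tissue content.

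Promoter windows of 300 bases (250 before and 50 after the start, RefSeq, GRCm38.p6) were matched for 5 of the 10 members, Vim, Zeb2 (4 windows), Snai1, Twist1 and Twist2. The windows were searched on both strands for the E-box CACCTG, which reads CAGGTG on the other strand and is the motif that Snai and Zeb proteins bind. Of all 32851 windows of that length, 20.2% held it. Of the 8 member windows 1 did, that of Snai1, 126 bases before the start. Vim and Twist2 had r = 0.70 over tumours. They did not pass without the 2 farthest arrays (r = 0.55, permutation adjusted p = 0.119) or without the 5 arrays with skeletal muscle (r = 0.57, permutation adjusted p = 0.166). The windows of Snai1, the exception, and of Vim and Twist2 are shown, with the E-box in capitals.
Snai1, chr2:167537945-167538244, plus strand: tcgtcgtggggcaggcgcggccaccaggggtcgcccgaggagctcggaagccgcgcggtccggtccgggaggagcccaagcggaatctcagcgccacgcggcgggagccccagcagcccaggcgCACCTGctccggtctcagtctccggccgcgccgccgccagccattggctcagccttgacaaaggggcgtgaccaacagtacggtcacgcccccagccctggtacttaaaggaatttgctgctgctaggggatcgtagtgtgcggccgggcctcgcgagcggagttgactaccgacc
Vim, chr2:13574061-13574360, plus strand: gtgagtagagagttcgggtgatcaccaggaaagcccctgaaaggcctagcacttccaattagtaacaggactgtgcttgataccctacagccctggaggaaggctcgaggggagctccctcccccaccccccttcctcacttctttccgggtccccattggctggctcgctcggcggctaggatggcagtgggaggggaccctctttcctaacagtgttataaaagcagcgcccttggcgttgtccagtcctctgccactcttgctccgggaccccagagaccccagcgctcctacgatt
Twist2, chr1:91801211-91801510, plus strand: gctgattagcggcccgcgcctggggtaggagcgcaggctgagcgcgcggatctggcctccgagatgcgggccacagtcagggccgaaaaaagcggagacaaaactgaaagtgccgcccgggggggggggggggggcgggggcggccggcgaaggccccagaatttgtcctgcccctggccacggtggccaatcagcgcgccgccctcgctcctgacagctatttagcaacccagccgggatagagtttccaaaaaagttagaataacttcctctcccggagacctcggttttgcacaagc
A match describes these letters and is no evidence of binding, and no match says only that the motif is not in this window.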

How the data were processed

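Cy3-labelled RNA from each mammary tumour was read on a 1-colour Agilent array, per the labels' protocols. Per the file headers, the scanner program was Agilent Feature Extraction 10.7.3.1, whose processed intensity has the background removed but no scaling between arrays. The submitters' processing notes name that program and limma. A log2 table that the authors deposited for these arrays served as an alternative. Each of its columns keeps the rank order of its array's median signal minus background, with medians from 8.85 to 8.86, and its centring is not given in the sources.

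The levels analysed were the processed signals on the log2 scale, less the array's 75th percentile (3513 to 4528 in Wsh, 3268 to 6337 in B6, as raw intensity), with outlier-flagged spots left out and spots of a probe averaged. A probe entered if it was well above background on 7 or more arrays, and a gene was read by its kept probe of highest mean. Genes were named by accession (32994 probes), symbol (10224) or synonym (520) in a RefSeq table, and 12867 probes kept the name in the files. The comparison used limma 3.58.1 under R 4.3.3 (lmFit, eBayes, two-sided), with Benjamini-Hochberg adjustment over all genes or all kept probes. Correlations used 100000 permutations, or all orders within a slide, two-sided, in Python 3.11.15. On simulated data with 200 of 22344 genes changed in this comparison, 61% of 100 genes changed by a log2 of 1 and 95% of 100 changed by 2 were recovered. Members and lists were chosen with earlier results of these data known. Named genes were all members with every probe, Kit, the 3 genes of largest absolute moderated t of each pathway list and any that passed, and the 3 genes of highest r with each member. One gene that this rule names is not reported here.

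Alternatives were normexp correction with an offset of 50, quantile and median scaling, no filter or a stricter one (all arrays), averaging the probes of a gene, a slide block, slides taken alone, array weights, a replicate block, trend with robust fitting, the deposited values, a fibroblast covariate, and leaving out the 5 arrays with skeletal muscle or each array in turn. Same-numbered Wsh and B6 samples correlated between -0.24 and 0.21 in their deviations from the group means, so the numbers do not pair them. No protein sequence, no exon annotation and no Zeb1 sequence was used here.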

Additional observations from a re-analysis of the deposited data

Results flagged for a closer look

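Of 42 sets of 1 kept member probe in 1 group, 5 had a highest array whose gap to the next exceeded Dixon's 95% critical value. Chance alone flags about 1 in 20 independent sets. These sets share arrays, and several probes read the same gene, so the 5 flags cannot be set against that rate. In 4 of the 5 flagged sets the array was Wsh replicate 1. It read -2.54 for Zeb1 probe A_55_P2713355, with the next Wsh array at -3.45, and -1.04 for Zeb1 probe A_55_P2798179, with the next at -1.94. It also read 0.96 for Zeb2 probe A_52_P596008, with the next at -0.13, and -2.66 for Zeb2 probe A_55_P2718568, with the next at -4.05. In the fifth, B6 replicate 1 had the highest Snai1 of its group (-0.75, with the next at -1.44). Wsh replicate 1 also had the highest Wsh mean of the fibroblast list (0.92), the endothelium list (0.78) and the adipocyte list (2.04) and carried the skeletal muscle signal. The part of these in its Zeb1 and Zeb2 levels was not tested.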

How the results depend on the processing

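No member gene passed in any of 30 other settings. One member probe, Fn1 A_55_P2743309, passed with array weights, where 152 of all 34349 kept probes passed as higher and 165 as lower. Of 84 pathway genes 1, Msn, passed with the mean of a gene's probes (0.57, SE 0.11, limma adjusted p = 0.0366), a count chosen after seeing the data. In that setting 32 of all 22344 genes passed as higher and 45 as lower. Over all genes the count of 76 became 50 with median scaling, 25 without a filter, 2 on slide 1, 1 on slide 2, 15 with a replicate block, 159 with array weights, 25 without the arrays with skeletal muscle and 25 (B6 replicate 5) to 83 (B6 replicate 7) with 1 array left out, under 51 for each but Wsh replicates 1 (51) and 5 (54) and B6 replicate 7. The replicate block, for numbers that do not pair the samples, gave 0 member genes. Signs turned as follows, and no such difference passed. Zeb1 was -0.038 with quantile and -0.059 with median scaling, -0.073 on slide 2, -0.11 with the replicate block, -0.027 with array weights, -0.021 in the deposited values, -0.17 without the muscle arrays, -0.014 with the fibroblast covariate and -0.13 to 0.20 with 1 array left out. Fn1 was 0.31 with the mean of its probes. Snai2 was -0.24 on slide 1, -0.13 without the muscle arrays and -0.050 to 0.27 with 1 array left out. Twist2 was 0.14 on slide 1 and -0.39 to 0.12 with 1 array left out, and Vim -0.20 to 0.0026. Esrp1 was 0.10 on slide 2 and 0.024 without the muscle arrays, and its probe A_55_P2033767 0.087 and 0.19. Zeb2 A_52_P526372 was 0.28 on slide 1 and -0.44 to 0.22 with 1 array left out, Zeb2 A_55_P2718568 -0.12 on slide 2 and -0.035 to 0.37, Zeb1 A_55_P2588577 0.22 on slide 1, and Fn1 A_51_P100856 -0.25 on slide 2, -0.082 without the muscle arrays and -0.065 to 0.24. Over all 45 pairs, 23 passed, and 10 did on slide 1 (8 of them among the 23), 3 on slide 2, 5 without the 2 farthest arrays, 3 without the muscle arrays (chosen after seeing the data) and 17 to 25 with 1 array left out. Over all 80 list relations, where 31 passed, these counts were 9, 10, 18 (17 of them among the 31), 10 and 21 to 34, and Snai2 with the basal list was -0.041 on slide 1. The subsets hold fewer arrays, and the causes of these changes were not tested.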
